A study of Mus musculus with 16 samples.

Results

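Extracellular vesicles from the lung lavage of wild-type mice were compared between bleomycin-injured and normal animals by sequencing their miRNAs. The comparison took 8 of the 16 libraries of the series, 4 bleomycin and 4 normal, and covered the 325 of 1907 listed mature miRNAs that reached 10 CPM, the unit of the deposited table, in at least 4 of the 16 libraries. CPM stands for counts scaled to a common total, so a value is a share of the miRNA reads of its library. Ranked by the library that decides the limit, miR-877-5p, miR-434-5p and miR-298-5p lay just inside it with 10.1, 10.4 and 10.4 CPM, and miR-1981-3p, miR-15b-3p and miR-6516-3p just outside it with 9.97, 9.82 and 9.36 CPM. The limit is met by any 4 libraries, so a miRNA can enter through 1 group alone: of the miRNAs reported below, 17 that rose were under 10 CPM in all 4 normal libraries and 5 that fell were under it in all 4 bleomycin libraries.

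Both groups were of the strain labelled C57BL/6-wildtype. The bleomycin group carries a treatment time of 21 days, the normal group received PBS, and vesicle RNA was prepared from bronchoalveolar lavage fluid. The other 8 libraries came from Sdc1-/- mice on the same background, which lack the cell-surface proteoglycan syndecan-1, under the same 2 treatments. The labels give no route or dose of bleomycin, no age or sex, and do not say whether a library is 1 mouse or a pool, so that every p-value below measures only the spread between these libraries. A share of reads also cannot tell fewer vesicles of 1 kind from less of a miRNA in each vesicle, and in such a mixture fewer cells of a type and less RNA per cell cannot be told apart.

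MiRNAs are short RNAs that guide Argonaute proteins to messenger RNAs, mainly by pairing of the seed, a stretch near their 5′ end, and so lower the translation or stability of those messages. Each is cut from a hairpin precursor whose 5′ arm (5p) and 3′ arm (3p) can both give a mature miRNA. Cells of the airway and alveolar lining, fibroblasts and leukocytes release vesicles that carry miRNAs into the lining fluid, and bleomycin, a drug that breaks DNA, injures the alveolar epithelium of mice and leads to inflammation and then fibrosis of the lung.

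The sequences that the results turn on are given here first, from the RefSeq annotation of mouse build GRCm38.p6, which held 280 of the 325 miRNAs. Capitals mark the seed, bases 2 to 8 from the 5′ end. MiR-21a-5p, read from chr11:86584120-86584141 on the minus strand, made up more of the gain than any other miRNA, and miR-21c and miR-3965 carry parts of the same letters. The longest run shared with miR-21a-5p was 15 bases for miR-21c and 9 bases for miR-3965.
miR-21a-5p: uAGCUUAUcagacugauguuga
miR-21c: uAGCUUAUcagacugguacaa
miR-3965: uGCUUAUCagccugauguu
The next set rose together from 2 hairpins at chr11:75173403-75173744, where miR-132-3p and miR-212-3p share a seed and miR-212-5p is the opposite arm of the latter.
miR-132-3p: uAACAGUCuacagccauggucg
miR-212-3p: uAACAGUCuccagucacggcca
miR-212-5p: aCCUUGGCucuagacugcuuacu
MiR-214 and 1 of the 2 miR-199a hairpins, both on chromosome 1, belong to a transcript expressed in mesenchymal cells. The other miR-199a hairpin lies on chromosome 9 and gives the same mature letters, so reads of the 2 cannot be told apart. The mature miR-199a-3p and miR-199b-3p are the same 22 letters.
miR-199a-5p: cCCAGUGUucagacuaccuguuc
miR-199a-3p: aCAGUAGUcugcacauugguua
miR-214-3p: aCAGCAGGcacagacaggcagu
The miR-30 arms below are shown because miR-30a-5p and miR-30e-5p fell while the 3p arms of the same hairpins were not called, and miR-30c-5p, with the same seed, was not called either.
miR-30a-5p: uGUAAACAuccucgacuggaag
miR-30e-5p: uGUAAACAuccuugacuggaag
miR-30c-5p: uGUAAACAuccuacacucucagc
miR-30a-3p: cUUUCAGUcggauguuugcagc
miR-30e-3p: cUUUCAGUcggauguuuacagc
The miR-200 family splits into 2 seed groups, AACACUG and AAUACUG, which differ at 1 base, and only members of the first were called among the 3p arms.
miR-200a-3p: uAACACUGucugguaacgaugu
miR-141-3p: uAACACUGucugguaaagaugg
miR-200b-3p: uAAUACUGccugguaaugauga
miR-200c-3p: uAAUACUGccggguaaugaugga
miR-429-3p: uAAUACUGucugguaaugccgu
Of the let-7 and airway miRNAs, let-7i-5p was the let-7 member that rose most and miR-34b-3p had the largest called fall.
let-7i-5p: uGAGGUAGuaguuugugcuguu
miR-34a-5p: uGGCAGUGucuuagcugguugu
miR-34b-3p: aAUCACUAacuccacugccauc
miR-34c-3p: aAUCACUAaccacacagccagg

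Recovered depth ran from 1094908 to 9062406 reads in the normal libraries and from 2202990 to 7050234 in the bleomycin libraries, and normal libraries 1 and 2 had 1094908 and 2556707. One read was 0.11 to 0.913 CPM, and a count of 0 allowed up to 3 reads, 0.331 to 2.74 CPM, for counting error only. Normal libraries correlated with each other across miRNAs at 0.948 to 0.98 on the log2 scale, bleomycin libraries at 0.897 to 0.972, and libraries of different groups at 0.841 to 0.927. On the first principal component, with 52.4% of the variance, the normal libraries lay between -14.2 and -5.54, bleomycin libraries 1, 2 and 4 between 8.62 and 18.3, and bleomycin library 3 at 0.00418. Bleomycin library 3 was the lowest bleomycin library in 24 of the 65 miRNAs that rose and the highest in 33 of the 47 that fell. It also held more erythrocyte miRNAs (1.96% of reads, against 0.0749% to 0.445% in the other bleomycin libraries) and more leukocyte miRNAs (0.0822%, against 0.0105% to 0.0225%). The normal libraries held 0.0522% to 0.888% and 0.0202% to 0.0407% of these lists, of which 4 of 6 and 5 of 6 members reached the filter, and miR-144 of red cells did not. The part of these levels in the results was not tested. The erythrocyte share of bleomycin library 3 included miR-486a-3p and miR-486b-5p, which hold the same values (6724 CPM each), and miR-486a-5p (5676 CPM). The last correlated with the other miR-486 entries at 0.999 over all 16 libraries. These may be the same reads counted more than once, in every library, which would make the erythrocyte shares too large.

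The question of the comparison was which vesicle miRNAs differ after bleomycin injury. Of the 325 miRNAs 112 changed (34.5%), 65 of them higher (20% of those tested) and 47 lower (14.5%) after bleomycin, by limma on log2(CPM + 5) with Benjamini-Hochberg adjusted p under 0.05. The fit took in all 16 libraries, so the SE and p-values of limma below also rest on the spread of the 8 Sdc1-/- libraries. The pseudocount of 5 CPM makes the fold changes of low miRNAs smaller than the ratio of their CPM. The 4 libraries of each group did not overlap for 71 miRNAs (21.8%), 49 higher and 22 lower, of which 67 were also called. The median change of all 325 was -0.0045 and the median size of the 112 called changes was 1.66, with 19 rises and 19 falls beyond a log2 change of 2. The quasi-likelihood test of edgeR on the recovered reads called 137 miRNAs, 110 of them shared with limma. The count fell to 74 without normal library 2 and to 59 without normal libraries 1 and 2.

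**Figure D1:**
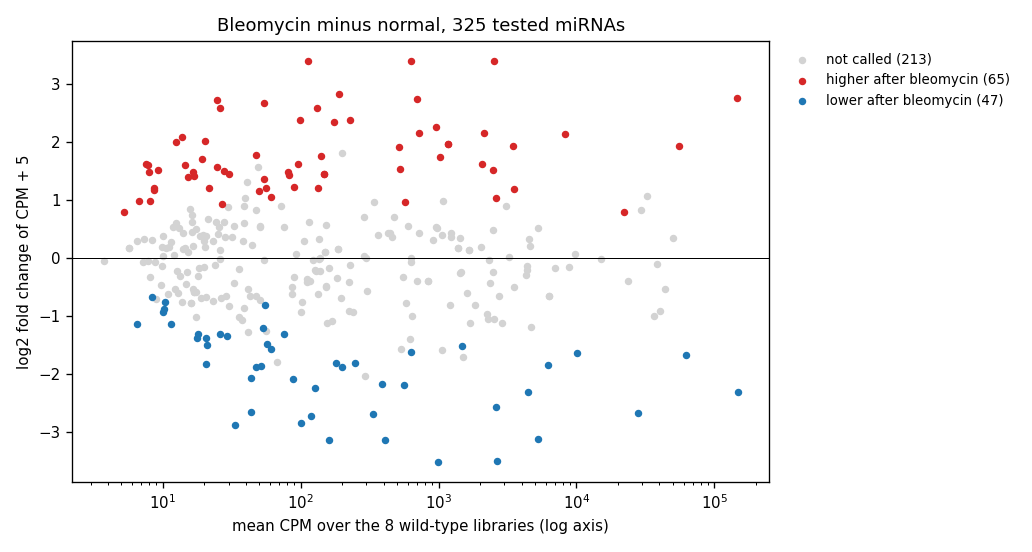
Log2 fold change of CPM + 5 (bleomycin minus normal, vertical axis) against the mean CPM of the 8 wild-type libraries (horizontal, log axis) for the 325 tested miRNAs, with the 65 higher, 47 lower and 213 uncalled miRNAs in different colours. Called miRNAs span the whole range of abundance, and the 1 at the upper right is miR-21a-5p.

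Much of the change in read share lay in a few miRNAs. Summed over the 325 miRNAs, 42.2 percentage points of the reads were gained by some and as many lost by others between the group means. MiR-21a-5p, widely described as induced in injured and fibrotic lung, gained 21.5 points, 50.9% of the gain, and with let-7i-5p (6.51 points) and let-7f-5p (3.02 points) it made up 73.4% of it. MiR-30d-5p, the leading miRNA of the normal libraries, fell by 18.6 points, 44.0% of the loss, and with miR-30a-5p (-6.36 points) and miR-200a-3p (-3.67 points) it made up 67.7%. The spread of reads over miRNAs was close in both groups. The 10 leading miRNAs of each library held 68.2% ± 5.4 (SD, n = 4) of reads in normal and 69.7% ± 9.28 in bleomycin libraries, and 34 ± 4.69 and 34.3 ± 11.6 miRNAs made up 90% of the reads (two-sided exact permutation p = 0.771 and 1, adjusted p = 1 for both over 4 such measures). The exact test of 4 against 4 libraries cannot give a p below 0.0286.

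**Figure D2:**
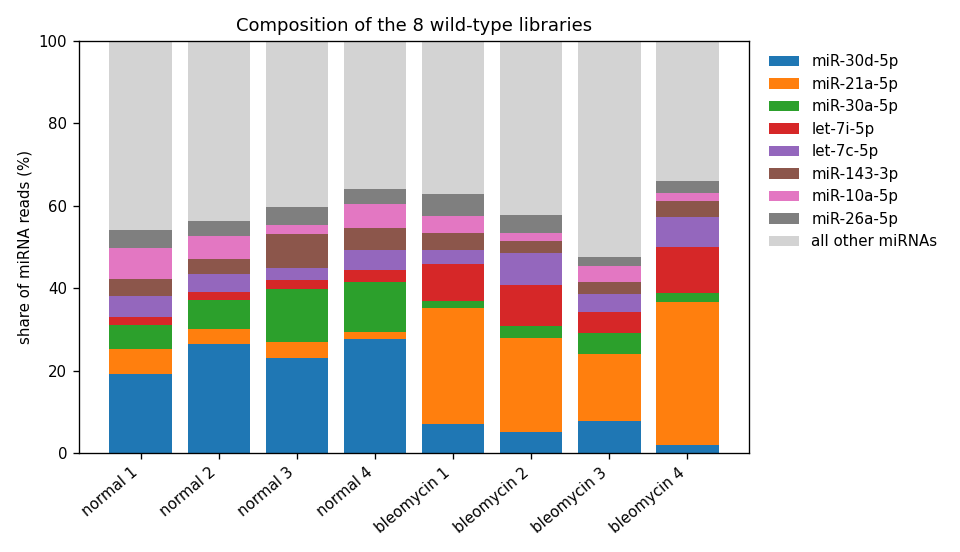
Share of miRNA reads (%, vertical axis) in each of the 8 wild-type libraries for the 8 miRNAs with the highest mean, stacked, with all other miRNAs in grey. MiR-30d-5p took 19.1% to 27.5% of each normal library and 1.84% to 7.79% of each bleomycin library, and miR-21a-5p took 1.91% to 6.12% and 16.1% to 34.8%.

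Among the miRNAs tied to injury and inflammation, 9 of 14 tested rose and none fell, with a median log2 change of 1.43, against 20% of all tested miRNAs that rose and a median of -0.0045. On leaving out 1 library 7 to 9 rose, and 1 fell without bleomycin library 3. The call of miR-21a-3p ended without normal library 2 or 4 or bleomycin library 4 (adjusted p = 0.052 to 0.0633). That of miR-155-5p ended without normal library 4 (adjusted p = 0.057). MiR-21a-3p and miR-212-5p were under 10 CPM in all normal libraries. MiR-21a-5p was 6.12%, 3.83%, 3.76% and 1.91% of reads in normal libraries 1 to 4 and 28.0%, 22.7%, 16.1% and 34.8% in bleomycin libraries 1 to 4. The groups did not overlap, with the lowest bleomycin library well above the highest normal one, and the log2 change was 2.76 (SE 0.33, adjusted p = 1.61e-05). MiR-21c stood at 0.43% to 0.48% of the level of miR-21a-5p in every wild-type library, and with a correlation of 0.99904 over all 16 libraries and 15 shared bases the table cannot tell its reads from reads of miR-21a-5p. MiR-3965 followed miR-21a-5p with a correlation of 0.985.

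MiR-132-3p, a miRNA induced by CREB in neurons and reported in activated immune cells, measured 31.1, 39.9, 30.01 and 66.4 CPM in the normal and 161, 351, 468 and 360 CPM in the bleomycin libraries. Its groups did not overlap (log2 change 2.82, SE 0.39, adjusted p = 4.24e-05). The neighbouring miR-212-5p had 0, 2.35, 1.43 and 6.69 CPM in normal and 85.5, 39.9, 33.1 and 27.9 CPM in bleomycin libraries (2.71, SE 0.32, adjusted p = 1.30e-05). Normal library 1 held no read of it, and the groups did not overlap. MiR-212-5p was under 10 CPM in all normal libraries and so passed the filter without them. MiR-212-3p, chosen after its values were seen, rose as well (2.0, SE 0.36, adjusted p = 0.000442), so all 3 tested products of these hairpins were called.

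MiR-146b-5p, which shares its seed with miR-146a-5p, was 0.547%, 0.357%, 0.217% and 0.184% of reads in normal and 1.29%, 0.982%, 1.65% and 1.39% in bleomycin libraries. All bleomycin libraries were higher than all normal ones (2.13, SE 0.39, adjusted p = 0.000442). Its close relative miR-146a-5p was not called (0.98, SE 0.51, adjusted p = 0.146), and its bleomycin values of 559, 841, 3850 and 974 CPM rested on library 3 for their mean. MiR-34a-5p, a p53 target, rose from 44.8 ± 20.9 to 146 ± 52.7 CPM (SD, n = 4), with no overlap (1.62, SE 0.38, adjusted p = 0.00311). The members not called were miR-146a-5p, miR-31-5p (-0.12), miR-135b-5p (-1.25), miR-221-3p (-0.26) and miR-222-3p (-0.33), and miR-132-5p did not reach the filter.

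**Figure D3:**
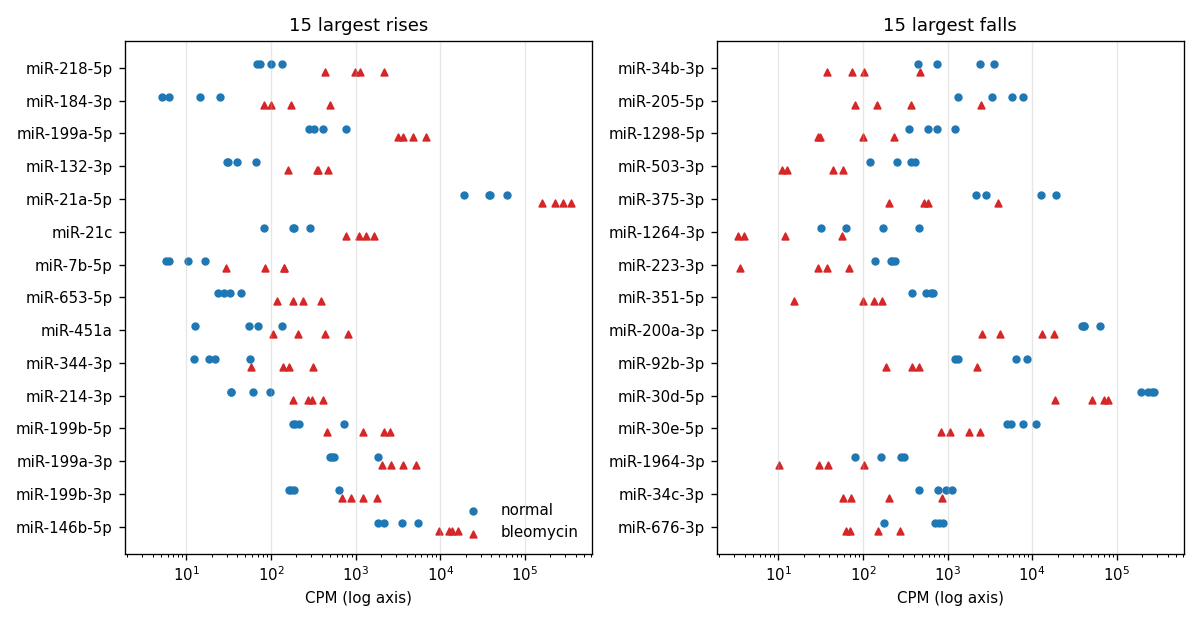
CPM (log axis) of the 15 largest rises and 15 largest falls among called miRNAs with a mean of at least 50 CPM, 1 row per miRNA, with the 4 normal libraries as circles and the 4 bleomycin libraries as triangles. The rises at the top of the left panel show no overlap, while in falls such as miR-205-5p and miR-375-3p 1 bleomycin library reaches into the normal range.

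All 6 tested products of the miR-199 and miR-214 hairpins rose, with a median log2 change of 2.2, beside 20% of all tested miRNAs. MiR-199a-5p, which targets caveolin-1 in lung fibroblasts, had 327, 408, 282 and 773 CPM in normal and 3166, 4784, 3641 and 6717 CPM in bleomycin libraries. The lowest bleomycin library exceeded the highest normal one by more than the range of the normal group (3.39, SE 0.45, adjusted p = 3.87e-05). MiR-214-3p measured 33.8, 61.8, 33.3 and 97.8 CPM in normal and 302, 180, 414 and 277 CPM in bleomycin libraries, again without overlap (2.34, SE 0.44, adjusted p = 0.000640). Normal library 4 was the highest normal library in all 3 of miR-199a-5p, miR-199a-3p and miR-214-3p. MiR-199a-3p (2.14, SE 0.56, adjusted p = 0.00812) and miR-199b-3p (2.14, SE 0.57, adjusted p = 0.00831) share their sequence, so how their reads were divided cannot be told from the table, and miR-199b-5p was called at 2.26 (SE 0.68, adjusted p = 0.0192). Leaving out 1 of normal libraries 1 and 2 or bleomycin libraries 2 and 4 ended the call of miR-199b-5p (adjusted p = 0.0542, 0.0526, 0.0515 and 0.0673), and leaving out normal libraries 1 and 2 together ended those of miR-199a-3p and miR-199b-3p (adjusted p = 0.123 and 0.126). By contrast, none of the 4 tested products of miR-143 and miR-145, abundant in smooth muscle, was called (median -0.62), and miR-143-3p was 3.48% to 8.07% of reads in normal and 2.93% to 4.11% in bleomycin libraries.

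Among the other large rises, miR-218-5p, encoded in introns of the Slit genes, was 99.6, 69.2, 73.5 and 137 CPM in normal and 1141, 977, 431 and 2167 CPM in bleomycin libraries. No library overlapped (3.40, SE 0.54, adjusted p = 0.000160). MiR-184-3p, known from epithelia of the eye and skin, measured 14.6, 25.0, 6.18 and 5.19 CPM in normal and 83.1, 172, 492 and 101 CPM in bleomycin libraries. It had about the same log2 change (3.40, SE 0.56, adjusted p = 0.000246), and without bleomycin library 3, its highest, it remained called. MiR-7b-5p rose from 9.74 ± 4.96 to 99.1 ± 53.5 CPM (SD, n = 4; 2.67, SE 0.40, adjusted p = 9.58e-05), and its seed partner miR-7a-5p was called at 0.97 (SE 0.36, adjusted p = 0.0469), a call that ended on leaving out any of normal libraries 2, 3 and 4 and bleomycin libraries 1, 2 and 4 (adjusted p = 0.0683 to 0.143). MiR-7688-5p stood at 2.74, 4.69, 1.77 and 6.69 CPM in normal and 40.3, 49.2, 49.5 and 51.6 CPM in bleomycin libraries. The 4 bleomycin libraries were close to each other, and the miRNA had the smallest adjusted p of the comparison (2.58, SE 0.28, adjusted p = 7.77e-06). It is 1 of the 17 rises that were under 10 CPM in all 4 normal libraries and so passed the filter without them.

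Of the 9 let-7 miRNAs, which restrain growth and differ in a few bases outside their common seed, 2 rose and 7 were not called, with a median of 0.53, a share of rises of 22.2% beside 20% of all tested miRNAs. Let-7i-5p was 2.13%, 1.80%, 2.15% and 2.93% of reads in normal and 8.91%, 9.83%, 5.13% and 11.2% in bleomycin libraries. Its groups did not overlap (1.92, SE 0.33, adjusted p = 0.000268). Let-7f-5p, the third largest gain in reads, rested on bleomycin library 1: its shares were 2.41%, 1.67%, 1.54% and 1.44% in normal and 10.5%, 2.96%, 1.27% and 4.40% in bleomycin libraries, and it was not called (1.07, SE 0.52, adjusted p = 0.120) but was without bleomycin library 3 (1.57, adjusted p = 0.0130). Let-7g-5p was called (0.79, SE 0.30, adjusted p = 0.0473), and the call was lost on leaving out any 1 library other than bleomycin library 3 (adjusted p = 0.0525 to 0.116). The family as a whole held 14.03% ± 1.88 of reads in normal and 26.0% ± 7.07 in bleomycin libraries (SD, n = 4), and bleomycin library 3, at 15.5%, lay within the normal range of 11.6% to 16.1%.

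Of the miR-30 family, which is abundant in lung epithelium, 3 of 10 tested products fell and none rose, with a median of -0.32, against 14.5% that fell and a median of -0.0045 over all miRNAs. MiR-30d-5p was 19.1%, 26.4%, 23.1% and 27.5% of reads in normal and 7.13%, 5.13%, 7.79% and 1.84% in bleomycin libraries. The groups lay far apart (-2.32, SE 0.39, adjusted p = 0.000265). MiR-30a-5p went from 5.69%, 7.01%, 12.8% and 12.002% to 1.72%, 3.01%, 5.16% and 2.18%, also without overlap, although normal library 1 and bleomycin library 3 were near each other (-1.68, SE 0.37, adjusted p = 0.00191). MiR-30e-5p fell from 7344 ± 2738 to 1532 ± 711 CPM (SD, n = 4; -2.31, SE 0.41, adjusted p = 0.000379). MiR-30c-5p (-0.50, SE 0.32) and miR-30b-5p (-0.25, SE 0.59), of the same family, were not called (adjusted p = 0.243 and 0.769). Together the 10 products held 26.2% to 41.3% of each normal and 4.70% to 14.4% of each bleomycin library.

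In the miR-200 family, whose members repress ZEB transcription factors and keep epithelial identity, 4 of 8 tested products fell and none rose (median -1.24), beside 14.5% of all tested miRNAs that fell. Besides the 2 described next these were miR-200a-5p (-1.62, adjusted p = 0.00481) and miR-200b-5p (-1.89, adjusted p = 0.0343), and the call of miR-200b-5p ended on leaving out any of normal libraries 1 and 2 and bleomycin libraries 1, 2 and 4 (adjusted p = 0.0515 to 0.123). Without normal libraries 1 and 2 together, 2 of the 8 were called. MiR-200a-3p was 4.08%, 4.15%, 6.33% and 3.90% of reads in normal and 0.253%, 1.31%, 1.82% and 0.414% in bleomycin libraries. No bleomycin library came near the normal range (-2.68, SE 0.52, adjusted p = 0.000748). MiR-141-3p, of the same AACACUG seed group but from another chromosome, measured 68.5, 60.2, 106 and 58.5 CPM in normal and 5.54, 18.1, 19.5 and 13.5 CPM in bleomycin libraries (-2.06, SE 0.37, adjusted p = 0.000379). The other seed group, AAUACUG, had no called member: miR-200b-3p (-0.02, SE 0.33), miR-200c-3p (-0.18, SE 0.37) and miR-429-3p (-0.43, SE 0.48) had adjusted p-values of 0.968, 0.729 and 0.518. MiR-200b-3p, from the hairpin next to miR-200a in the cluster at chr4:156053916-156055742, was 1.83%, 1.48%, 1.52% and 1.05% of reads in normal and 1.12%, 2.44%, 1.83% and 0.817% in bleomycin libraries, with the groups mixed.

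Of 11 airway epithelial products 5 fell and 2 rose, with a median of -1.07, beside 14.5% of all tested miRNAs that fell and 20% that rose, and the falls were uneven between libraries. The count of falls was 2 without normal library 1, 3 without normal library 2 or bleomycin library 1 or 4, and 6 without normal library 4 or bleomycin library 3, and without normal libraries 1 and 2 together none of the 11 was called. MiR-34b-3p, made with miR-34c in multiciliated cells, measured 3547, 2450, 742 and 445 CPM in normal and 74.0, 102, 473 and 37.5 CPM in bleomycin libraries. The normal libraries with the fewest reads, 1 and 2, were highest, and bleomycin library 3 just exceeded normal library 4 (-3.51, SE 0.78, adjusted p = 0.00195). MiR-205-5p of basal cells had 7723, 5743, 3365 and 1328 CPM in normal and 80.0, 373, 2476 and 148 CPM in bleomycin libraries, again highest in normal libraries 1 and 2 and with the same overlap (-3.50, SE 0.87, adjusted p = 0.00531). MiR-375-3p, known from neuroendocrine cells, had 19098, 12814, 2829 and 2182 CPM in normal and 531, 591, 3947 and 205 CPM in bleomycin libraries (-3.12, SE 0.93, adjusted p = 0.0172). Without normal libraries 1 and 2 none of these 3 was called (adjusted p = 0.0740, 0.105 and 0.264), and miR-375-3p was also lost without either of them or bleomycin library 4 (adjusted p = 0.0607, 0.0534 and 0.0682). Without bleomycin library 3 the 3 changes were -4.20, -4.47 and -3.94 in the same order, without bleomycin library 1 that of miR-205-5p was -2.84, and without bleomycin library 4 that of miR-375-3p was -2.53. The 2 that rose, miR-182-5p (1.51, SE 0.42, adjusted p = 0.0112) and miR-183-5p (1.19, SE 0.38, adjusted p = 0.0233), come with miR-96-5p (0.54, not called) from the cluster at chr6:30165962-30169732, best known from sensory organs. The call of miR-183-5p ended on leaving out any of normal libraries 2 and 4 and bleomycin libraries 2 and 3 (adjusted p = 0.0534 to 0.0663).

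On the X chromosome, 6 of 9 tested products of 5 hairpins at chrX:53048008-53054327 on the minus strand fell, beside 14.5% of all tested miRNAs, and the changes of the 9 ran from -3.13 to -0.71. With miR-450a-5p, whose 2 copies lie inside the same stretch, the count over the listed products of miR-322, miR-503 and their neighbours was 7 of 10, with a median of -1.66, and it was 5 to 9 on leaving out 1 library. It was 5 without normal library 3 or 4 or bleomycin library 4, where the calls of miR-503-5p and miR-450b-3p ended. MiR-503-3p measured 122, 253, 372 and 418 CPM in normal and 12.6, 44.0, 58.6 and 11.2 CPM in bleomycin libraries, with no overlap (-3.13, SE 0.54, adjusted p = 0.000290). MiR-351-5p measured 670, 635, 378 and 555 CPM in normal and 169, 135, 101 and 15.5 CPM in bleomycin libraries, also apart (-2.69, SE 0.53, adjusted p = 0.000849, and -2.01 without bleomycin library 4). The cluster is known from muscle differentiation and cell cycle exit, and held 0.130% to 0.199% of reads in normal and 0.0136% to 0.0789% in bleomycin libraries.

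Blood cell miRNAs went in different directions. MiR-223-3p, a marker of neutrophils and other myeloid cells, measured 219, 236, 217 and 140 CPM in normal and 3.54, 37.7, 68.1 and 29.4 CPM in bleomycin libraries. It was lower in all 4 bleomycin libraries (-2.72, SE 0.50, adjusted p = 0.000442, and -2.10 without bleomycin library 1). MiR-142a-3p, a marker of all leukocytes, was near the floor of the shallower libraries at 2.08 to 7.31 CPM in normal and 1.99 to 11.4 CPM in bleomycin libraries, and was not called (0.16, SE 0.31, adjusted p = 0.719). MiR-150-5p of lymphocytes was called (1.76, SE 0.56, adjusted p = 0.0233), with 601 CPM in bleomycin library 3 against 51.4 to 145 CPM in the others, and without that library it was not (1.13, adjusted p = 0.0596), and leaving out normal library 1 or 4 ended the call as well (adjusted p = 0.0673 and 0.0548). MiR-451a of red cells measured 12.8 to 137 CPM in normal and 105 to 808 CPM in bleomycin libraries (2.38, SE 0.84, adjusted p = 0.0344), a call that rested on 6 libraries, normal 1, 2 and 4 and bleomycin 2, 3 and 4, each of which ended it when left out (adjusted p = 0.0569 to 0.122). MiR-486a-5p, also of red cells, was not called (0.17, SE 1.13), and its direction rested on single libraries, at -0.83 with bleomycin library 3 left out, -0.52 with normal library 4 left out and 0.89 with bleomycin library 4 left out. MiR-126a-3p of endothelium was called (1.96, SE 0.64, adjusted p = 0.0237) and its opposite arm miR-126a-5p was not (0.11, SE 0.57), and the call ended on leaving out 1 of normal libraries 1 and 2 and bleomycin libraries 1 and 4 (adjusted p = 0.0712, 0.0736, 0.0714 and 0.0766).

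Of the remaining lists, products of miR-15, miR-16, miR-195 and miR-497 had 2 rises among 4 tested (median 0.89), those of miR-10, miR-99, miR-100 and miR-125 had 2 among 7 (0.36), and those of miR-148 and miR-152 had 1 among 3 (0.83). The miR-23, miR-27 and miR-24 products had 2 rises and 1 fall among 8 (0.32), the miR-17 group had 1 rise and 2 falls among 10 (0.41), and the miR-29 family had 1 fall among 4 (-0.64), that of miR-29c-5p. None of the 7 miR-181 (0.43), 5 miR-26 and miR-101 (0.02) and 4 liver and skeletal muscle products (-0.65) was called. The shares of called members of these 9 lists lie from 0% to 50%, beside 34.5% of all tested miRNAs. Without normal library 1 no call was left among the miR-15, miR-10, miR-148, miR-17 and miR-29 groups. Without bleomycin library 1 the rises of miR-100-5p and miR-10b-5p (adjusted p = 0.0714 and 0.0701), of miR-195a-5p and miR-497a-5p (adjusted p = 0.0602 and 0.0923) and of miR-23b-3p and miR-27b-5p (adjusted p = 0.0642 and 0.0549) were not called. The calls of miR-17-5p, miR-92a-3p and miR-92b-3p ended without normal library 1 (adjusted p = 0.061, 0.0729 and 0.0745), and all 3 were also lost on leaving out the second normal or the fourth bleomycin library. That of miR-152-3p ended without either of normal libraries 1 and 2 or bleomycin libraries 2 and 4 (adjusted p = 0.0515 to 0.0792), and that of miR-29c-5p without any of normal libraries 1, 2 and 4 and bleomycin library 4 (adjusted p = 0.056 to 0.0904). On leaving out 1 library, up to 2 of the miR-181 products and up to 1 of the liver and muscle products in each direction were called.

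**Figure D4:**
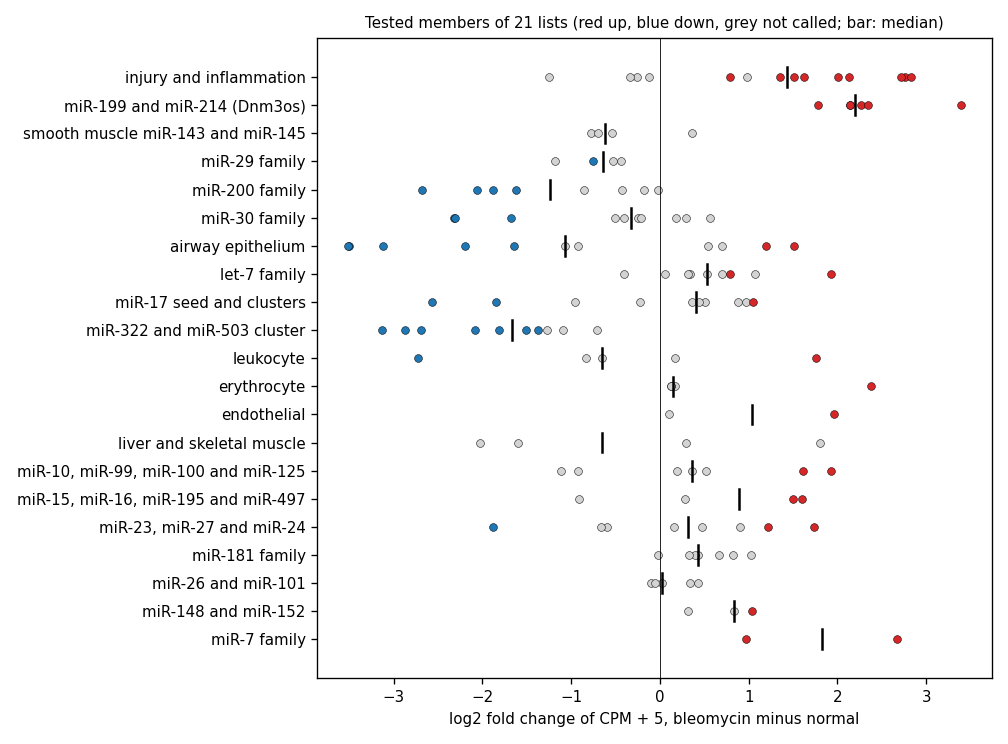
Log2 fold change of CPM + 5 (bleomycin minus normal, horizontal axis) of every tested member of 21 lists, 1 row per list, with called rises, called falls and uncalled members in different colours and the list's median as a bar. All 6 miR-199 and miR-214 products lie above 0, and the miR-322 and miR-503 products all lie below 0.

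The 5p and 3p arms of a hairpin come from the same precursor, so their ratio in a library does not depend on the read total, apart from the pseudocount of low arms. Both arms were tested for 79 hairpins, and the 5p to 3p ratio changed for 19 (24.1%), 13 towards the 5p arm and 6 towards the 3p arm (limma on the log2 ratio, adjusted over the 79). Among the 19, miR-126a (-1.86) and miR-126b (1.86, adjusted p = 0.00415 for both) held nearly the same values with the arms swapped. They may be 1 change counted once in each direction, and both also enter the counts of single arms. Taking the arms singly, both rose in 10 hairpins, both fell in 7, exactly 1 was called in 28 and none in 34. In no hairpin was 1 arm called higher and the other lower.

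Of the 79 ratios, those of miR-30a and miR-30e had the smallest p. The log2 ratio of miR-30a-5p to miR-30a-3p was 5.30, 5.41, 6.06 and 5.64 in normal and 3.86, 3.38, 3.98 and 3.74 in bleomycin libraries. The 2 groups were tight and apart (-1.86, SE 0.24, adjusted p = 0.000110). For miR-30e the log2 ratio was 2.96, 2.86, 3.27 and 2.62 in normal and 0.80, 0.79, 1.57 and 0.91 in bleomycin libraries (-1.91, SE 0.27, adjusted p = 0.000169). The 3p arms themselves were not called: miR-30a-3p was 1441, 1640, 1916 and 2407 CPM in normal and 1176, 2896, 3276 and 1622 CPM in bleomycin libraries (0.18, SE 0.38, adjusted p = 0.731), and miR-30e-3p was at -0.40 (SE 0.38, adjusted p = 0.442). MiR-30d had a ratio change of -2.10 (SE 0.59, adjusted p = 0.0183), and the ratio of miR-30b was not called (-0.54, SE 0.55, adjusted p = 0.485). Reads of miR-30e-3p and of miR-30f, annotated on the other strand of the same site, could not be told apart in the table.

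Other hairpins moved towards the 5p arm. For miR-21a the ratio rose by 1.97 (SE 0.38, adjusted p = 0.00251), but miR-21a-3p was at 1.5 to 3.42 CPM in normal libraries, where the ratio depends on the pseudocount, and with a pseudocount of 1 CPM the change was 1.42 (adjusted p = 0.0319). For miR-199a the log2 ratio was between -1.24 and -0.42 in normal and between -0.21 and 0.86 in bleomycin libraries (1.25, SE 0.30, adjusted p = 0.00793). Because miR-199a-3p has the same letters as miR-199b-3p, its value may hold reads of the miR-199b hairpin, and this ratio need not be that of arms of the same precursor. For miR-324 it rose by 2.05 (SE 0.35, adjusted p = 0.000824), with miR-324-5p called higher (1.39) and miR-324-3p not called (-0.66). MiR-324-5p was at 3.52 to 8.17 CPM in normal libraries and 6.42 CPM in bleomycin library 1, so this ratio depends on the pseudocount as well. For miR-34b (2.44, SE 0.62, adjusted p = 0.0109), miR-223 (1.89, SE 0.47, adjusted p = 0.00974) and miR-141 (1.21, SE 0.29, adjusted p = 0.00793) the 3p arm fell and the 5p arm was not called.

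**Figure D5:**
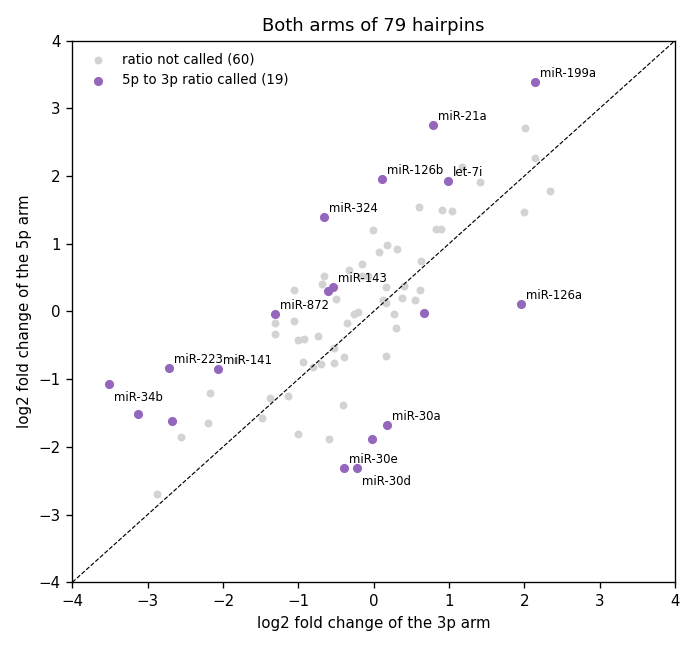
Log2 fold change of the 5p arm (vertical axis) against that of the 3p arm (horizontal axis) for 79 hairpins, with the 19 whose arm ratio changed in colour and the dashed line marking equal change. MiR-30a, miR-30d and miR-30e lie well below the line, and miR-21a, miR-324 and miR-199a above it.

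The ratios of 5 pairs of related miRNAs, chosen after their values were seen, were compared library by library. The log2 ratio of miR-200a-3p to miR-200b-3p was 1.16, 1.49, 2.05 and 1.89 in normal and -2.14, -0.90, -0.01 and -0.98 in bleomycin libraries, a mean change of -2.65. MiR-200a-3p was the more abundant in every normal library and the less abundant in every bleomycin library. The ratio of miR-34a-5p to miR-34c-5p changed by 3.26, that of miR-27b-5p to miR-27a-5p by 3.10 and that of miR-17-5p to miR-92a-3p by 2.89, each with no overlap of the groups. All 4 had the smallest p that 4 against 4 libraries allow (two-sided exact permutation p = 0.0286, adjusted p = 0.0357 over 5 pairs), and since the pairs were chosen for their difference these p-values describe and do not support. The ratio of miR-146b-5p to miR-146a-5p changed by 1.15 with overlap (exact permutation p = 0.0857).

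By sequence, the 280 matched miRNAs carried 220 seeds, and 34 seeds were shared by 2 or more of them. In 14 of these seed groups members were called in the upward direction only, in 7 in the downward direction only and in 13 not at all. Only 12 of the 34 groups had 2 or more called members, without which both directions cannot occur, and none of the 12 held both. Some of the 12 were hardly free to do so. The pairs miR-199a-3p with miR-199b-3p and miR-21a-5p with miR-21c may each share reads, with correlations of 0.99858 and 0.99904 over all libraries. MiR-34c-5p, which is not in the sequence table, fell (-1.64, SE 0.49, adjusted p = 0.0174) and belongs to the family of miR-34a-5p, which rose. The call of miR-34c-5p was lost when library 1 of the normal or of the bleomycin group was left out (adjusted p = 0.0542 and 0.0569). By position, among miRNAs with a single annotated site, 23 runs of 2 or more hairpins lay within 10 kb of each other on 1 strand. Of these 6 held rises only, 6 falls only, 11 no call and none both, and a run with 1 call could not hold both. MiR-92a-3p, which fell, was not counted because it has copies on chromosomes 14 and X. The copy at chr14:115044476-115044496 lies within 10 kb of miR-17-5p, which rose, so with it that run would hold both directions. The table cannot tell which copy gave the reads.

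Some pairs of names in the table may be 1 set of reads. In all, 11 pairs had the same values within 1% in every library, and 8 of them are annotated on opposite strands of 1 site. The labels do not say whether the counting used strand. Of the 112 calls this touches 2 pairs, miR-126a-3p with miR-126b-5p and miR-374b-5p with miR-374c-3p, which count as 4 calls but may be 2.

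In the Sdc1-/- mice, whose normal and bleomycin libraries are different ones, 76 of the 325 miRNAs changed (23.4%). Of the 65 miRNAs that rose in wild type, 63 had the same sign in the knockout and 37 were called there, and of the 47 that fell 46 had the same sign and 19 were called. The 56 shared calls were 50% of the wild-type and 73.7% of the knockout calls. As a description across the 325 miRNAs, which are not independent of each other, the 2 sets of log2 changes correlated with a Pearson r of 0.784 and a Spearman rho of 0.774. The median change of the miRNAs that rose was 1.60 in wild type, where they were called, and 1.09 in the knockout, and of those that fell -1.83 and -1.06. Since the miRNAs were picked by their wild-type values, no difference is read from these medians.

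No miRNA passed the test of the difference between the genotypes (0 of 325, 0%, limma interaction), with 24 at an unadjusted p under 0.05, and edgeR also called 0. The smallest p-values belonged to miR-142a-3p, whose values are the same as those of miR-142b on the other strand (0.16 in wild type and 2.04 in the knockout, adjusted p = 0.0671), miR-212-5p (2.71 and 1.23, adjusted p = 0.396), miR-100-5p (1.92 and -0.59, adjusted p = 0.623) and miR-7688-5p (2.58 and 1.49, adjusted p = 0.623). MiR-21a-5p, miR-30d-5p and miR-30a-5p changed by 2.74, -2.46 and -1.54 in the knockout, beside 2.76, -2.32 and -1.68 in wild type. MiR-199a-5p and miR-218-5p changed by 1.91 and 1.98 beside 3.39 and 3.40, and the interaction test did not call either (adjusted p = 0.623 for both).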

How the data were processed

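Small RNA libraries were made from vesicle RNA of bronchoalveolar lavage fluid, 4 per group. The authors deposited 1 table of CPM values, with each column scaled to a common total over 1907 mature miRNAs. Bowtie2 2.2.3 and the human build GRCh38 are named, without their roles, per the submitters' processing notes; the trimming, annotation and counting steps are not stated in these sources. Whole reads were recovered from the deposited CPM: 100% of values lay within 0.001 of a whole multiple of 1 step. Groups came from the sample titles.

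From these values log2(CPM + 5) was fitted with limma 3.58.1 in R 4.3.3 over all 16 libraries and 4 group means (12 residual degrees of freedom, Benjamini-Hochberg adjustment over the 325 miRNAs at 0.05), and edgeR 4.0.16 tested the recovered reads. Arm ratios were fitted the same way, and ratios of 2 miRNAs and library measures were tested by exact permutation. The fits were tested on simulated data. Named by rule were the 15 largest called rises and falls with a mean of at least 50 CPM, the 8 most abundant miRNAs, up to 4 members of each list and the smallest interaction p-values. Not all of these are described in the text. MiRNAs described beyond them among arms, clusters, lists and pairs were chosen after their values were seen. The members and lists were chosen with earlier results of these data known. Alternatives were other pseudocounts, filters, scalings, fits and covariates, and each library left out; after seeing the data, these were also run on ratios and library measures.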

Additional observations from a re-analysis of the deposited data

Results flagged for a closer look

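Values of single libraries were set apart where the highest or lowest of 4 libraries was separated from the nearest of the others by a share of the group's range above Dixon's critical value. This was so for 18 of 176 groups of 4 libraries examined, and no explanation was tested. Chance gives about 1 in 20 for independent groups. The groups here are not independent, since they share libraries and some miRNAs hold the same values, so no excess over chance is read from the count. Of the 18, 11 were high values of bleomycin library 3. They were 473.4 CPM of miR-34b-3p (other bleomycin libraries 37.5 to 102), 2476 CPM of miR-205-5p, 3947 CPM of miR-375-3p, 56.74 CPM of miR-1264-3p, 2200 CPM of miR-92b-3p and 7663 CPM of miR-92a-3p, of which all 6 are miRNAs that fell. The others were 600.5 CPM of miR-150-5p, 5676 CPM of miR-486a-5p, 8055 CPM of miR-24-3p, and 6724 CPM of both miR-486a-3p and miR-486b-5p, which hold the same values.

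Normal library 4 held 736.8 CPM of miR-199b-5p, 1832 CPM of miR-199a-3p and 630.9 CPM of miR-199b-3p, where the other normal libraries held 182 to 214, 500 to 549 and 162 to 186 CPM. Normal library 3 held 63310 CPM of miR-200a-3p and 440.2 CPM of miR-16-5p. Normal library 2 held 479.1 CPM of the muscle miRNA miR-206-3p against 10.96 to 36.8 CPM in the others. Bleomycin library 1 held 3796 CPM of miR-23b-3p against 671 to 1112 CPM.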

How the results depend on the processing

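The count of 112 changed miRNAs lay within 1.5 times under other pseudocounts (111 and 105), no filter (90 of 1358), other scalings (128 and 130), edgeR (137), log2 reads as a covariate (132) and a fit of the 8 wild-type libraries alone (85). A similar count is not the same list: of the 112 calls, 66 were among the 90 without a filter, and 107 and 106 among those of the other scalings. The count was 60 with a filter at 100 CPM, where fewer miRNAs are tested, and 59 without normal libraries 1 and 2, those of fewest reads, where fewer libraries are. Leaving out 1 library gave 74 (without normal library 2) to 134 (without bleomycin library 3). With miR-21a-5p taken out of the total, all miRNAs moved up by a median of 0.35, and 86 of 120 calls (71.7%) were rises. Without bleomycin library 3, 45.5% were rises, against 58.0%. The arm ratio count of 19 became 8 at 100 CPM and 12 to 29 on leaving out 1 library; the interaction count of 0 became 2 without normal wild-type library 4, normal knockout library 2 or bleomycin wild-type library 3, and was 0 to 2 in all. The labels do not say whether the library numbers pair the samples. Deviations of libraries with the same number correlated at 0.251, -0.0605, -0.0948 and 0.508, and those of libraries with different numbers at -0.56 to 0.467. So few values cannot decide the question. With the replicate number as a block the count of changed miRNAs was 105, and it was 72 in the knockout, 0 for the interaction and 18 for arm ratios. Of 50 called named miRNAs, 25 kept their call under every alternative, 25 lost it under at least 1 and none reversed. Without the 2 normal libraries of low depth 24 were lost. Among the large changes not described above, the rises of miR-653-5p and miR-344-3p and the fall of miR-1298-5p (-3.71 to -2.60) kept their call under all 20 alternatives. The falls of miR-1964-3p and miR-676-3p ended without those 2 libraries (adjusted p = 0.172 and 0.146). Depth limits miRNAs under about 3 reads, up to 2.74 CPM. The ratios of 2 miRNAs were not called on leaving out any library, where the smallest exact permutation p is 0.0571.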

Other observations

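Further miRNAs outside the lists and the naming rule, described after their values were seen, rose from near the floor. MiR-9-5p, known from the nervous system, measured 0, 1.57, 1.77 and 0.693 CPM in normal and 22.6, 13.7, 9.99 and 9.79 CPM in bleomycin libraries. MiR-217-5p, known from the pancreas, measured 2.74, 0.782, 0.772 and 0.346 CPM in normal and 5.76, 28.5, 55.4 and 15.2 CPM in bleomycin libraries. MiR-335-3p measured 1.83, 1.57, 1.32 and 2.31 CPM in normal and 38.5, 15.5, 24.1 and 15.2 CPM in bleomycin libraries. In all 3 the groups did not overlap (limma adjusted p = 9.96e-05, 0.000644 and 4.24e-05), beside 21.8% of all tested miRNAs, and every normal value was at or below 2.74 CPM. They were picked by these values and passed the filter without any normal wild-type library, so the p-values and the lack of overlap describe and do not support.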
